A study of Mus musculus with 29 samples.

Results

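Acyl-CoA thioesterases hydrolyse an acyl-CoA, the activated form of a fatty acid, to the free fatty acid and coenzyme A. They work against the acyl-CoA synthetases and so help to set how much acyl-CoA, free fatty acid and free coenzyme A a compartment holds. The type I enzymes Acot1 to Acot6 are close relatives that lie side by side in the mouse genome and differ in compartment: Acot1 is cytosolic, Acot2 mitochondrial, and Acot3, Acot4 and Acot6 peroxisomal. Several of them are known targets of PPARalpha, the nuclear receptor that fatty acids activate and that governs the fasting response of liver. The type II enzymes share a different fold (the hotdog fold): Acot7 is a cytosolic enzyme best known from neurons, Acot8 a peroxisomal enzyme of broad specificity, Acot12 a cytosolic acetyl-CoA hydrolase of liver, and Acot13 a small mitochondria-associated enzyme for long-chain acyl-CoA. The 9 members described here were found by matching the Ensembl identifiers of the deposited tables to the symbols Acot1, Acot2, Acot3, Acot4, Acot6, Acot7, Acot8, Acot12 and Acot13. They are 9 of the 38124 genes in the tables, and all 9 symbols were found.

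RNA of liver and of the entire hindlimb muscle was sequenced from 16 male C57BL/6 mice, an inbred strain, bought at 14 weeks of age and put on their diets at 4 months. The control group was itself mildly limited, to 95% of ad libitum intake (13.6 kcal per day), and the calorie-restricted groups labelled soy, fish and lard received 60% (8.6 kcal per day). The labels name these 3 groups by diet alone, and the series title speaks of omega-3 fatty acids, the lipids that fish oil is known for. Which fat the control diet held is not stated there. For liver 3 control libraries and 4 of each restricted diet remained, and for muscle 4 control, 3 soy, 3 fish and 4 lard libraries, each from 1 mouse, so the tests measure the spread between mice. Depth was 11315231 to 27106865 exon reads per library. CPM below are exon reads of a gene per 1e+06 exon reads of the library and include reads that map to more than 1 place; RPKM, which also divide by exon length, are used only to compare genes. All 5 hepatocyte markers were read in every liver group (Alb, Apob, Ttr, Serpina1a and Cps1, 86177 to 136533 CPM in sum) and all 5 skeletal muscle markers in every muscle group (Acta1, Ckm, Myh4, Tnnt3 and Mylpf, 91349 to 185083 CPM).

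How far the reads of the type I genes can be told apart is set by their sequence. On GRCm38 the 5 type I members lie on the plus strand within 1 stretch, chr12:83987861-84111349, in the order Acot2, Acot1, Acot4, Acot3, Acot6. The coding sequences of Acot1 and Acot2, in the GENCODE M21 transcripts, are identical at 95.6% of 1236 aligned bases, whereas the other pairs among Acot1 to Acot6 (Acot5 included) reach 75.9% to 85.8%. The longest run that Acot1 and Acot2 share without a mismatch is 273 bases, shown here because a read inside it cannot be assigned to either gene. It covers bases 887 to 1159 of the Acot1 coding sequence, within an exon at chr12:84017006-84017278 for Acot1 and chr12:83992728-83993000 for Acot2.

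Acot1 and Acot2 shared run: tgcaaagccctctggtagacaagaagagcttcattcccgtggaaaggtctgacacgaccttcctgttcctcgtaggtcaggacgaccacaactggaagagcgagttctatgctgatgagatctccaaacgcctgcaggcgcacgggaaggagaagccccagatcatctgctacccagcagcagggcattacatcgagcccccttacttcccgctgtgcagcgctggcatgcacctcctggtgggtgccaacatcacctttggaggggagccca

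The share of exon reads that the authors' counting called unique followed these relations. It was 64.5% for Acot1, 73.9% for Acot2, 91.7% for Acot3 and 99.9% for Acot6 over all libraries. Acot4 was the exception among the members, with 25.2% unique reads, so its levels rest mostly on reads with another possible place and are uncertain. Acot7 and Acot13 had 100% unique reads, Acot12 98.4% and Acot8 90.1%. In the same annotation exons of Acot3 and Acot4 overlap Gm49366 on their own strand and 4732463B04Rik on the other, exons of Acot8 overlap Snx21 on the other strand, and exons of Acot12 overlap 4833422C13Rik on the other strand. As no source used here names the strand setting of the counting, reads of such partners cannot be told apart from those of these 4 members.

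Of the 9 members 7 have an entry among the RefSeq promoters of GRCm38.p6 (Acot6 and Acot13 have none). The 250 bases before the start are shown for 4 type I members, because these genes are neighbours and several are known targets of the same receptor. PPARalpha with its partner RXR is known to bind 2 AGGTCA half-sites spaced by 1 base. Capitals mark the match to NGGNCANAGGNCA, a relaxed form of that element, on either strand.

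Acot1, chr12:84009252-84009501, plus strand: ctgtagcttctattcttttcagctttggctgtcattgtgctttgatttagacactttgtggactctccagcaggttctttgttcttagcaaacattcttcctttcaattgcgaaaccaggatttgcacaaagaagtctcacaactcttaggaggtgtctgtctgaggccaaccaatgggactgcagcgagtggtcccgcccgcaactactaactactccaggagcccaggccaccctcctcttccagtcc
Acot2, chr12:83987611-83987860, plus strand: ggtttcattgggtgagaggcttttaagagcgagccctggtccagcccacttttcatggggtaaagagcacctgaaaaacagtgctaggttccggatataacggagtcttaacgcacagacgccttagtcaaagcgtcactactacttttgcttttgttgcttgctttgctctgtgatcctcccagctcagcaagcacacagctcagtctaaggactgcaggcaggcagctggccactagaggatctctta
Acot3, chr12:84051894-84052143, plus strand: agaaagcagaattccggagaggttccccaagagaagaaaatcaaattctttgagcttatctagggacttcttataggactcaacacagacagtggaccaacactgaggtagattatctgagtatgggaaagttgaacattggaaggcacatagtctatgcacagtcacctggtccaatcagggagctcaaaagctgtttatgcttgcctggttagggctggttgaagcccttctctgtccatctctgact
Acot4, chr12:84038129-84038378, plus strand: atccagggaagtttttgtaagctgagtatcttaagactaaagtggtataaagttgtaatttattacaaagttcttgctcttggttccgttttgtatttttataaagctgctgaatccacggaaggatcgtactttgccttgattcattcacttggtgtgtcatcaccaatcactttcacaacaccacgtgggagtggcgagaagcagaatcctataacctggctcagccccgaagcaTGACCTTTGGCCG

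The strict element AGGTCANAGGTCA was found on either strand in 0 of the 7 member windows (250 bases before to 50 after the start) and in 0.0396% of all 32851 windows. The form AGGNCANAGGNCA was likewise found in 0 members and in 0.381% of windows. The relaxed form, which contains the stricter ones, was found in Acot4 alone, as TGACCTTTGGCCG starting 13 bases before the start, and in 0.798% of all windows. The half-site AGGTCA was present in Acot3, Acot4 and Acot12 and in 16.3% of all windows. A match is a string of letters and not a measured binding site.

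Before the levels are given, 4 libraries must be set apart, because they carry several of the values below. Reads of a gene that fell outside its exons made up 5.47% and 5.41% of gene reads in the soy livers of mice 1073 and 1159, whereas the remaining 13 livers had 7.90% to 8.92%. In these 2 libraries the deviation of a gene from its mean over livers fell with exon length (Spearman rho across genes -0.65 and -0.63, against 0.06 to 0.34), and the 687 genes with exons under 1000 bases lay at a median of 0.72 and 0.52 log2 units above their mean (-0.17 to -0.03 in the others). The control muscles of mice 1071 and 1120 showed the same kind of relation with length (rho -0.37 and -0.48, against 0.02 to 0.27 in the other 12 muscles). They also held more erythroid and neutrophil RNA: the sum of 6 erythroid markers was 1982 and 7658 CPM against 219 to 1082 CPM, and that of 6 neutrophil markers 262 and 1112 CPM against 0.183 to 2.54 CPM. Where a difference described below leaned strongly on these libraries, its value without them is given as well.

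In control mice 5 members rose in liver over muscle (35.5% of all 14150 genes tested did so) and 1 rose in muscle over liver (38%), while Acot2, Acot7 and Acot13 did not pass. Together these are 6 of 9 or 66.7% against 73.6% of all genes, so a tissue difference was no more frequent among the members than among genes in general. The test was edgeR's quasi-likelihood F test with Benjamini-Hochberg adjustment over all genes at 0.05, and differences are log2 with an approximate standard error. The median over the members was 1.90 log2 units toward liver, beside -0.05 for all genes. In bulk RNA fewer cells of a type and less RNA per cell cannot be told apart.

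Acot12, the cytosolic acetyl-CoA hydrolase, showed the widest gap. It stood at 212, 197 and 206 CPM in the 3 control livers and at 0.976, 0.335, 0.141 and 0.277 CPM in the 4 control muscles, a difference of 8.83 ± 0.36 (adjusted p = 2.12e-17). The muscle values came from 2 to 17 reads per library over all diets. Acot3, a peroxisomal enzyme, stood at 69.8, 182 and 180.0 CPM in liver and 0.585, 0.671, 0.283 and 0.485 CPM in muscle, a difference of 8.14 ± 0.51. Peroxisomal Acot4 stood at 25.1, 60.5 and 48.5 CPM in liver and 0.390, 0.201, 0.495 and 0.347 CPM in muscle. Its difference of 6.96 ± 0.60 rests mostly on reads with another possible place. For these 3 genes no muscle came near any liver. Their mean in control muscle was 0.211%, 0.352% and 0.802% of that in control liver, in the order Acot12, Acot3, Acot4. The summed hepatocyte markers in control muscle were 0.321% of their sum in control liver (299 against 92878 CPM). The control muscle with the highest Acot12, of mouse 1071, had 458 CPM of hepatocyte markers, and the other 3 had 191 to 320 CPM. What part hepatocyte RNA has in these muscle values was not tested.

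The cytosolic enzyme Acot1 was the fourth member that was far higher in liver. Control livers held 49.04, 88.9 and 120.0 CPM and control muscles 2.08, 3.35, 4.31 and 2.70 CPM, a difference of 4.82 ± 0.53 (adjusted p = 8.65e-09). Peroxisomal Acot8 was expressed in both tissues, at 16.7, 18.5 and 21.7 CPM in liver and 5.01, 4.23, 6.29 and 4.92 CPM in muscle, with a smaller difference of 1.90 ± 0.22 (adjusted p = 1.60e-08). Acot6 went the other way. It stood at 0.567, 1.72 and 1.35 CPM in control liver and 5.59, 5.90, 5.52 and 4.71 CPM in control muscle, a difference of -2.14 ± 0.32 (adjusted p = 1.31e-06), so that the peroxisomal members split between the tissues.

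Mitochondrial Acot2, Acot7 and Acot13 did not pass in this comparison. Acot2 stood at 10.9, 21.00 and 23.6 CPM in liver and 19.4, 24.6, 20.02 and 18.6 CPM in muscle, and the tissues overlapped (-0.15 ± 0.43, adjusted p = 0.771). The sign of that difference turned to 0.16 without the control liver of mouse 1095. Acot13 lay between 50.5 and 55.5 CPM in control liver and between 57.7 and 97.96 CPM in control muscle, with no overlap, at -0.39 ± 0.19 (adjusted p = 0.0728). It passed without the control muscle of mouse 1121 (adjusted p = 0.0432) and without the soy liver of mouse 1141 (0.0419). Without the control muscle of mouse 1120, the highest, it was -0.26 (adjusted p = 0.245), and without the 4 libraries that stood apart -0.24 (adjusted p = 0.0992). In Acot7 the libraries set apart mattered most: control livers stood at 17.01, 17.98 and 19.4 CPM and control muscles at 21.1, 12.9, 22.4 and 9.01 CPM, where the 2 high muscles are those of mice 1071 and 1120. The Acot7 difference was 0.15 ± 0.23 (adjusted p = 0.561) with all libraries, -0.057 without the control muscle of mouse 1121, and 0.74 (adjusted p = 0.000648) without the 4 libraries that stood apart. The groups did not overlap in 5 members higher in liver, where 33.3% of all genes did so, and in 2 members lower in liver, against 34.2%.

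**Figure D1:**
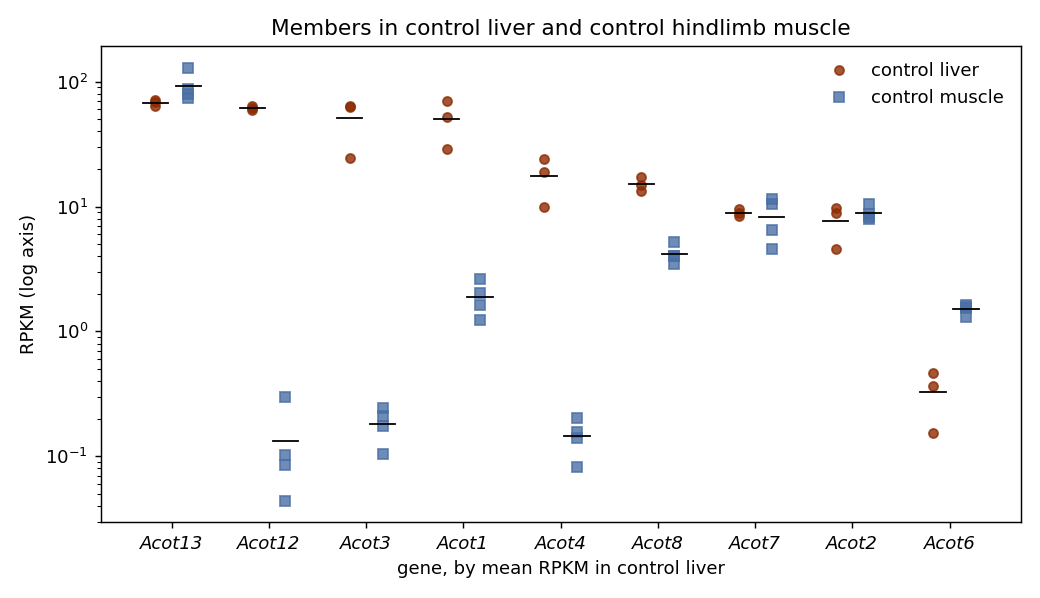
Points give RPKM (log axis) of each member in the 3 control livers (circles) and 4 control muscles (squares), with genes ordered by mean RPKM in control liver; black lines are means. Acot12, Acot3 and Acot4 are at most 0.297 RPKM in every control muscle, while Acot13 has the highest mean in both tissues and overlaps Acot1 in liver.

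Compared per length, Acot13 had the highest mean of the members in both tissues, at 68.1 ± 3.29 RPKM in control liver and 92.8 ± 25.3 RPKM in control muscle (SD, n = 3 and n = 4). In control liver the RPKM order went on with Acot12 (61.6 ± 2.22), Acot3 (50.7 ± 22.6) and Acot1 (50.6 ± 20.8), whose neighbours overlapped from library to library. Acot1 ranged from 28.9 to 70.4 RPKM there and overlapped Acot13 too, which it exceeded in the liver of mouse 1121 (70.4 against 69.1 RPKM). Acot4 and Acot8 followed at 17.6 and 15.1 RPKM and overlapped, then Acot7 and Acot2 at 8.95 and 7.73 RPKM, which overlapped too, and Acot6 came last at 0.328 RPKM. In control muscle Acot13 was alone at the top. The next were Acot2, Acot7 and Acot8 at 8.86, 8.29 and 4.18 RPKM, each overlapping its neighbour. Acot1 and Acot6 at 1.88 and 1.51 RPKM overlapped, as did Acot3, Acot4 and Acot12, all at 0.183 RPKM or less on average. The ranking of Acot1, Acot2 and Acot4 carries the doubt about shared reads.

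In liver the diets moved no member past the threshold. Of the 9 members tested 0 passed in soy against control (1.17% of 12788 genes passed), fish against control (0.383%), lard against control (0.508%) and the mean of the 3 restricted diets against control (1.08%). Between the restricted diets 0 of 9 passed in fish against soy (0.0938%), fish against lard (0.203%) and lard against soy (0%). Against such backgrounds, a set of 9 genes with 0 calls does not stand out. At an unadjusted p under 0.05 there were 3, 0, 3 and 1 members in the comparisons with control, in the order given, beside 22.3%, 8.93%, 9.99% and 11.7% of all genes. Between restricted diets there were 2, 2 and 3, beside 23.1%, 9.98% and 17.3%. By DESeq2's Wald test 2 members passed in soy against control (6.77% of all genes) and 1 in fish against soy (6.36%), all in the pair Acot13 and Acot7 described below. By that test 0 passed in fish, lard and restricted against control (1.29%, 2.14% and 2.65%), fish against lard (1.28%) and lard against soy (1.18%), though in lard against soy that tool gave an adjusted p for 2 of the 9 members only.

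Among the type I genes, Acot1 and Acot2 had their lowest mean liver levels on lard, with wide spread inside each group. Acot1 stood at 49.04, 88.9 and 120.0 CPM in control, 62.8, 19.1, 41.1 and 107 CPM in soy, 69.99, 50.6, 92.6 and 158 CPM in fish and 32.3, 35.5, 58.3 and 16.4 CPM in lard livers. Only 1 lard liver exceeded the lowest fish or control liver, but the groups overlapped, and a single diet spanned several-fold. The Acot1 difference was 1.27 ± 0.51 for fish against lard (adjusted p = 0.419) and -1.19 ± 0.54 for lard against control (adjusted p = 0.478). Without the fish liver of mouse 1125, the highest of all, the first difference was 0.83. Acot2 stood at 10.9, 21.00 and 23.6 CPM in control, 10.7, 7.15, 8.51 and 12.6 CPM in soy, 10.5, 14.7, 18.02 and 25.1 CPM in fish and 5.78, 9.26, 11.8 and 8.75 CPM in lard livers. Soy and lard livers thus lay at the low end for this mitochondrial enzyme, while 2 of 3 control and 3 of 4 fish livers exceeded every soy and lard liver. The Acot2 difference was -0.99 ± 0.34 for lard against control (adjusted p = 0.256), -0.79 ± 0.34 for soy against control (0.188), -0.64 ± 0.27 for the restricted mean against control (0.369) and 0.83 ± 0.32 for fish against lard (0.404). The comparisons with control share the same 3 control livers and those with lard the same 4 lard livers. On unique reads alone Acot2 gave -0.91 for lard against control and Acot1 gave 1.26 for fish against lard, close to the values from all exon reads.

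Acot3, Acot4 and Acot6, the peroxisomal type I members, had no liver diet difference at an unadjusted p under 0.05. Acot3 ranged from 69.8 to 260.4 CPM over the 15 livers, with means of 144 ± 64.1 CPM in control, 209 ± 66.7 in soy, 205 ± 69.8 in fish and 129 ± 52.5 in lard (SD, n = 3, 4, 4 and 4). Acot4 ranged from 7.15 to 60.5 CPM, and its lowest values, 7.15 and 18.9 CPM, were those of soy mice 1073 and 1159. Acot6 was low throughout, from 0.567 to 2.82 CPM (8 to 47 reads). Its highest liver, of fish mouse 1123, also held 2352 CPM of skeletal muscle markers, against 112 to 245 CPM in the other livers; their part in that value was not tested. As reads may pass between neighbours, the summed CPM of Acot1 to Acot4 was taken as well: 155 to 372 CPM in control, 145 to 375 in soy, 216 to 487 in fish and 139 to 299 in lard livers, which overlapped.

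**Figure D2:**
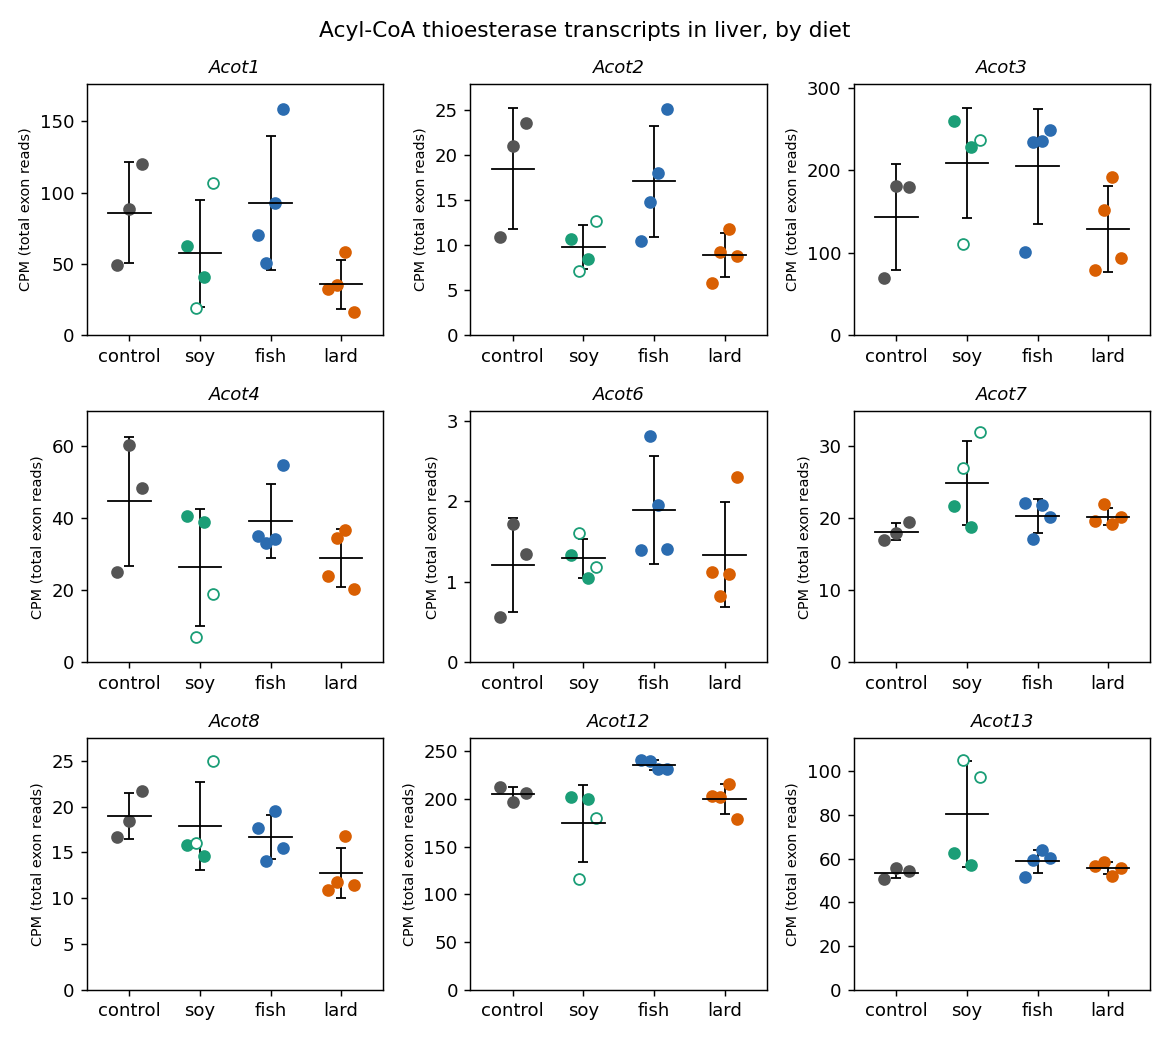
CPM of total exon reads in each liver by diet (points; open circles are the soy livers of mice 1073 and 1159), with the group mean (line) and SD (bar); each vertical axis starts at 0. Fish livers lie above all others for Acot12, and the 2 open circles are the highest livers for Acot13 and Acot7 and the lowest for Acot4.

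Of the type II genes, Acot12 in the fish livers was the most even. It stood at 212, 197 and 206 CPM in control, 202, 116, 200.2 and 179.7 CPM in soy, 241, 239.7, 231 and 231 CPM in fish and 203, 202, 216 and 179 CPM in lard livers. In CPM, before the normalization used in the tests, all 4 fish livers exceeded all 11 others, a pattern that 0.993% of the genes tested in liver showed. The lowest fish liver stood at 231 CPM and the highest other liver at 216 CPM. Whether they stay apart after normalization was not tested. Acot12 was the 1 member of 9 whose fish livers lay wholly above control, soy or lard livers taken singly, against 7.17%, 9.34% and 12.6% of all genes. The mean in fish was 123% of the mean of the other livers, and after normalization the differences were small and did not pass: adjusted p was 0.876 against control, 0.251 against soy and 0.889 against lard. Fish against soy was 0.25 ± 0.13, and 0.12 (adjusted p = 0.653) without the soy livers of mice 1073 and 1159.

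Acot8, the broad peroxisomal enzyme, had its lowest mean on lard. It stood at 16.7, 18.5 and 21.7 CPM in control, 15.8, 16.02, 14.6 and 25.04 CPM in soy, 17.7, 14.1, 19.5 and 15.5 CPM in fish and 10.9, 11.8, 16.8 and 11.5 CPM in lard livers. In 3 of 4 lard livers Acot8 lay below every other liver, while that of mouse 1102 was within the range of the other diets. The differences were -0.48 ± 0.22 for lard against control (adjusted p = 0.491) and -0.56 ± 0.21 for lard against soy (0.237), and the second was -0.23 without the soy livers of mice 1073 and 1159.

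Acot13 and Acot7 had the smallest p of the members in liver, and the differences of both leaned strongly on the 2 soy livers set apart. Acot13 stood at 50.5, 55.5 and 54.5 CPM in control, 62.6, 105, 57.2 and 97.2 CPM in soy, 51.4, 59.3, 63.9 and 60.3 CPM in fish and 56.6, 58.6, 52.1 and 55.6 CPM in lard livers. The soy livers of mice 1073 and 1159 were the only ones above 63.9 CPM, and all 4 soy livers exceeded the controls, as in 2.78% of all genes. Soy against control gave 0.76 ± 0.22 (adjusted p = 0.0841; 0.0214 by DESeq2's Wald test), and 0.22 (adjusted p = 0.421) without those 2 libraries. Leaving out either of the other soy livers, of mouse 1065 or 1141, let it pass (adjusted p = 0.0201 and 0.0219). Fish against soy was -0.67 ± 0.20 (adjusted p = 0.111) and lard against soy -0.61 ± 0.20 (0.229); without the 2 libraries they were -0.13 and -0.08. Acot13 has the shortest exon model of the members, at 721 bases. Those of Acot8, Acot1 and Acot7 have 1152, 1559 and 1860 bases, and what part length has in these values was not tested.

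Acot7 followed the same libraries. It stood at 17.01, 17.98 and 19.4 CPM in control, 21.7, 26.9, 18.8 and 31.96 CPM in soy, 22.1, 17.1, 21.9 and 20.2 CPM in fish and 19.6, 21.9, 19.2 and 20.1 CPM in lard livers. Soy against control gave 0.62 ± 0.19 (adjusted p = 0.0993; 0.0414 by DESeq2's Wald test) and 0.22 without the soy livers of mice 1073 and 1159. Fish against soy went from -0.50 ± 0.17 (adjusted p = 0.129) to -0.10, and lard against soy from -0.37 ± 0.17 (0.288) to 0.02. These Acot7 and Acot13 differences thus moved with the library features given above, whose part in them beyond leaving the libraries out was not tested. Markers of neurons, the cells Acot7 is best known from, were Snap25, Syt1, Map2 and Tubb3. Snap25 was at 0 in every liver group. The sum of these markers was 6.17 to 15.7 CPM in soy and 11.2 to 27.9 CPM in the other livers. In muscle that sum was lower, at 1.07 to 4.08 CPM.

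**Figure D3:**
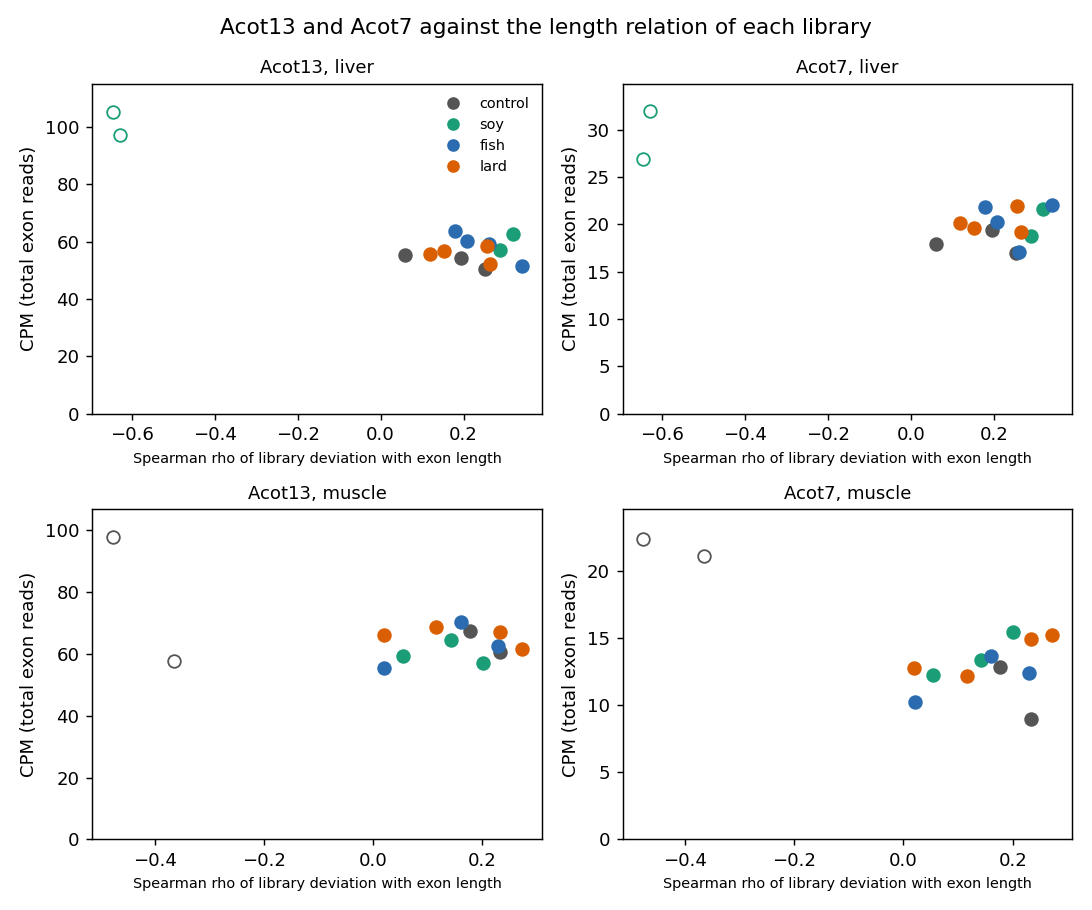
CPM of Acot13 (left) and Acot7 (right) in each liver (top) and muscle (bottom) against the Spearman rho, across genes, between the library's deviation from the tissue mean and exon length; colours are diets and open circles the 4 libraries that stood apart. The soy livers at rho -0.65 and -0.63 have the highest Acot13 and Acot7, and the control muscles at -0.37 and -0.48 the highest Acot7.

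In muscle 8 of the 9 members were tested. Acot4 did not reach the minimum count, with 0 to 14 reads per library; the 0 in the fish muscle of mouse 1124 allows up to 0.238 CPM, counting error only. Of the 8 tested 0 passed in soy against control (0% of 13104 genes), fish against control (0.00763%), lard against control (0%), the restricted mean against control (3.49%), fish against soy (0%), fish against lard (0%) and lard against soy (0%). At an unadjusted p under 0.05 there were 0, 1, 0 and 0 members in the comparisons with control, beside 17.4%, 18.4%, 17.3% and 26.4% of all genes, and 2, 2 and 1 between restricted diets, beside 2.2%, 4.13% and 3.05%. DESeq2's Wald test passed 0 members in all 7 muscle comparisons, where it passed 1.85%, 3.01%, 2.43% and 9.67% of genes against control and 0%, 0.107% and 0% between restricted diets; in each comparison of a single diet with control it gave no adjusted p for 1 or 2 members.

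Mitochondrial Acot2 spread widely in muscle. It stood at 19.4, 24.6, 20.02 and 18.6 CPM in control, 39.2, 12.5 and 11.7 CPM in soy, 19.4, 37.6 and 82.4 CPM in fish and 12.99, 12.97, 19.6 and 12.4 CPM in lard muscles. The fish muscles of mice 1124 and 1123 and the soy muscle of mouse 1065 were high, while the third fish muscle lay within the control range. Fish against control was 1.10 ± 0.46 (adjusted p = 0.229) and fell to 0.45 without the fish muscle of mouse 1124. Fish against lard was 1.57 ± 0.46 (adjusted p = 0.932) with all libraries and 0.90 without that library. On unique reads the first difference was 1.06.

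Acot6, the member that was higher in muscle than in liver, was highest in the fish group. It stood at 5.59, 5.90, 5.52 and 4.71 CPM in control, 4.50, 5.18 and 3.34 CPM in soy, 5.95, 6.93 and 7.23 CPM in fish and 5.05, 3.91, 4.33 and 4.36 CPM in lard muscles. In CPM, before the normalization used in the tests, the 3 fish muscles exceeded all 11 others, as in 0.275% of the genes tested in muscle. The margin over the highest control was narrow (5.95 against 5.90 CPM), and whether it holds after normalization was not tested. Taken singly, fish muscles lay above control muscles in 6.92%, above soy muscles in 4.04% and above lard muscles in 8.87% of all genes. The Acot6 difference was 0.62 ± 0.18 against soy and 0.51 ± 0.17 against lard, and did not pass (adjusted p = 0.9997 and 0.9998; 0.419 against control).

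Acot3 stood at or below 1.29 CPM in muscle (3 to 21 reads). It was 0.188, 0.336 and 0.297 CPM in soy, 1.29, 0.612 and 0.954 CPM in fish and 0.480, 1.10, 0.841 and 0.238 CPM in lard muscles, with fish above soy in every library (1.79 ± 0.57) and lard against soy at 1.38 ± 0.55 (adjusted p = 0.9997 and 0.99995). The fish muscle with the most Acot3, of mouse 1067, also had the most hepatocyte marker RNA of all muscles (532 CPM, against 161 to 458 CPM), the most Acot12 (0.982 CPM) and the most Acot4 (0.859 CPM). What part hepatocyte RNA has in these values was not tested. Acot1 lay between 1.10 and 4.69 CPM and Acot8 between 2.82 and 6.29 CPM over the 14 muscles, with no diet difference at an unadjusted p under 0.05. Acot7 stood at 21.1, 12.9, 22.4 and 9.01 CPM in control and between 10.3 and 15.4 CPM in the 10 restricted muscles. Acot13 stood at 57.7, 67.3, 97.96 and 60.8 CPM in control and between 55.4 and 70.3 CPM in the restricted muscles. The high control values of Acot7 belong to mice 1071 and 1120 and that of Acot13 to mouse 1120, the muscles with most erythroid and neutrophil RNA.

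**Figure D4:**
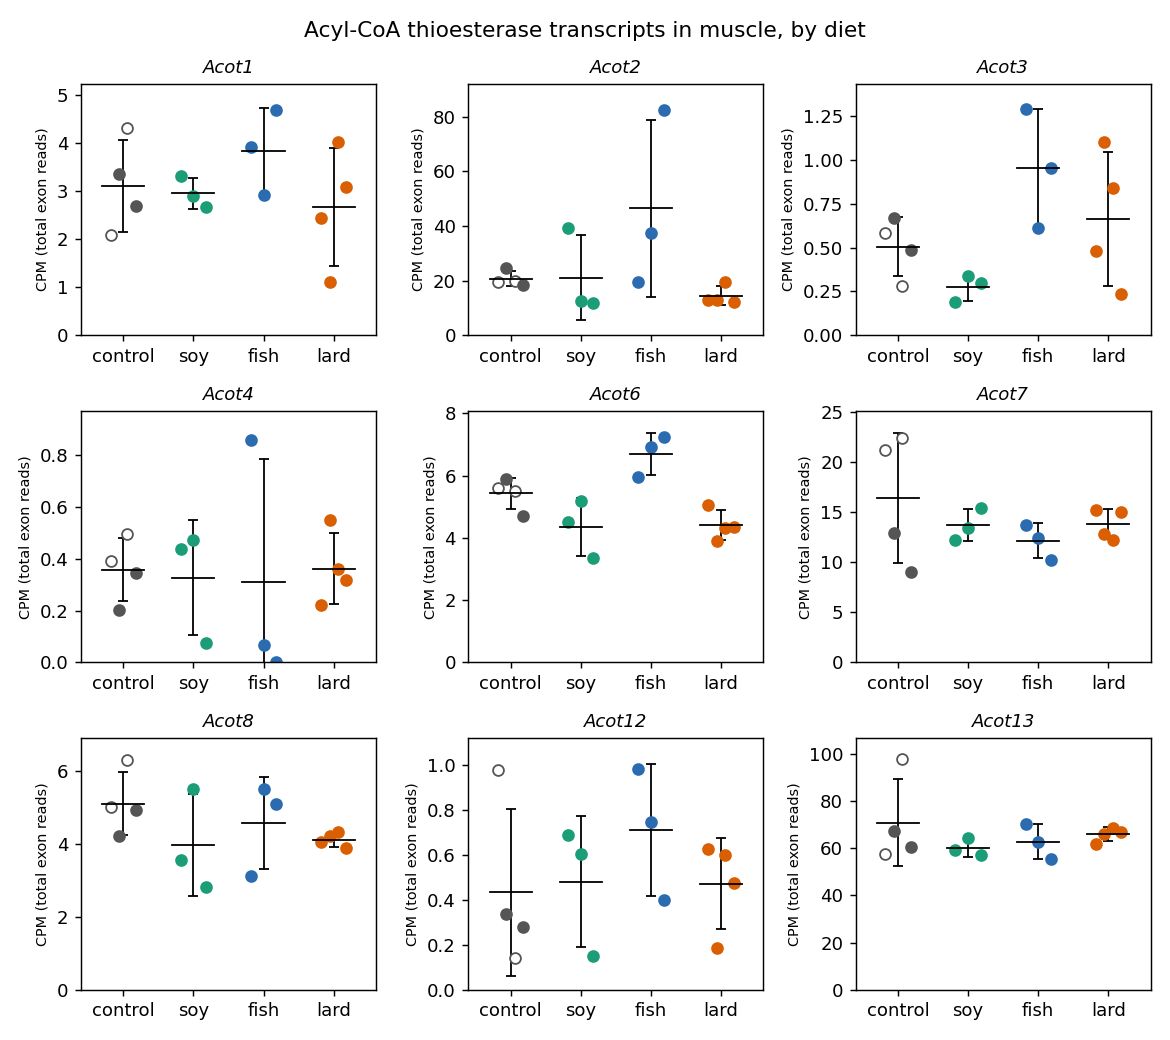
CPM of total exon reads in each hindlimb muscle by diet (points; open circles are the control muscles of mice 1071 and 1120), with the group mean (line) and SD (bar); each vertical axis starts at 0. The fish muscle of mouse 1124 reaches 82.4 CPM of Acot2, and the 3 fish muscles lie above the other 11 for Acot6.

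The effect of restriction was then compared between tissues, as the restricted mean against control in liver minus the same in muscle. Of the 9 members 0 passed, where 0.657% of 14150 genes did (93 genes, and 16 with the animal as a replicate block). At an unadjusted p under 0.05 there were 2 members (18.3% of all genes), Acot7 at 0.64 ± 0.27 (adjusted p = 0.211) and Acot13 at 0.50 ± 0.22 (0.237), and DESeq2's Wald test passed 0 (3.14% of all genes). Without the 4 libraries that stood apart these were -0.058 and 0.19, so both values leaned strongly on those libraries. Without the control muscle of mouse 1121 Acot7 passed (0.85, adjusted p = 0.0450).

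Across the 15 livers Pearson's r of log2 CPM between Acot1 and Acot2 was 0.83 (0.84 over the 13 livers without the 2 set apart). For the pairs among Acot1 to Acot4 it lay between 0.47 and 0.83 (0.53 and 0.84), whereas Acot6, also of type I, had r of -0.06 to 0.30 with them (0.02 to 0.37). Acot8, of type II, had an r of 0.70 with Acot1 (0.79). Reads that the type I genes share enter their values, and their part was not tested; all r here are descriptions over libraries that share diets. Between Acot7 and Acot13 r was 0.84 and fell to 0.38 without the 2 libraries. Likewise r went from 0.80 to 0.24 for Acot4 with Acot12, from -0.74 to 0.08 for Acot12 with Acot13, and from -0.70 to 0.21 for Acot4 with Acot13. In the 14 muscles the closest pair was Acot2 with Acot6, at 0.68 (0.70 over the 12 muscles without the control muscles of mice 1071 and 1120).

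The genes outside the family with the most similar course were taken for the 3 members of smallest p in each tissue. Among 9199 genes in liver, Acot2 was most like Hadhb, a subunit of the mitochondrial trifunctional protein (r = 0.89), Hadh, a mitochondrial beta-oxidation enzyme (0.89), and Vnn1, a pantetheinase (0.86), and without the 2 soy livers these were 0.92, 0.91 and 0.85. For Acot13 the nearest were the ribosomal protein genes Rpl38 (0.98), Rps15a (0.98) and Rps12 (0.97), which dropped to 0.76, 0.76 and 0.69. For Acot7 they were S100a13, Psmg1 and Iah1, each at 0.90, which dropped to 0.55, 0.59 and 0.58. Among 9219 genes in muscle, Acot2 was most like Gars, the glycyl-tRNA synthetase (0.92), Cyb5r1 (0.91) and Aldh18a1, an enzyme of proline synthesis (0.91). Acot6 was most like Nrde2, Tab1 and Dmpk (0.85, 0.81 and 0.81), and Acot7 like Chchd7, D10Jhu81e and Cox5a (0.94, 0.93 and 0.89). Without the 2 control muscles set apart the muscle values for Acot2 and Acot6 lay between 0.81 and 0.92 and those for Acot7 between 0.81 and 0.86.

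The rest of the acyl-CoA pathway gave few calls between diets. Of 92 other genes, of acyl-CoA metabolism and of lists related to it, 85 were tested in liver and 86 in muscle. In the 14 diet comparisons 3 calls were made among them. Soy against control liver had 1 lower, where 1.17% of all 12788 genes passed. Restricted against control muscle had 1 higher and 1 lower, where 3.49% of 13104 genes passed. Such counts do not stand out from genes in general. Acox3, a peroxisomal acyl-CoA oxidase, fell in soy against control liver (20.7 ± 4.38 against 33.8 ± 1.65 CPM, SD, n = 4 and n = 3; -0.57 ± 0.13, adjusted p = 0.0443). Acsl4, an acyl-CoA synthetase that favours arachidonic acid, rose in restricted against control muscle (29.2 ± 3.98 against 22.5 ± 2.72 CPM; 0.38 ± 0.09, adjusted p = 0.0479). Acads, the short-chain acyl-CoA dehydrogenase, fell in the same comparison (54.6 ± 9.55 against 79.3 ± 21.4 CPM; -0.57 ± 0.13, adjusted p = 0.0432). Without the libraries set apart, which left fewer libraries in the group, these 3 genes kept their direction but did not pass. Without the 2 soy livers Acox3 was at -0.42 (adjusted p = 0.150, unadjusted 0.00371 by the same test). Without the 2 control muscles Acsl4 was at 0.24 and Acads at -0.33 (adjusted p = 0.434 for both, unadjusted 0.0298 and 0.0296). Without the 2 soy livers other calls appeared among the 85 pathway genes in liver. They were 2 lower in fish, 2 lower in lard and 3 lower in the restricted mean against control, and 1 higher in fish against lard. Calls over all genes rose there too, in that order from 49 to 137, 65 to 236, 138 to 326 and 26 to 98. The larger counts are out of 12900 genes tested.

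Between the tissues, 64 of 88 pathway genes tested rose and 10 fell in control liver against control muscle, where 35.5% of all 14150 genes rose and 38% fell. In peroxisomal beta-oxidation 13 of 14 rose and 0 fell, among them Decr2 at 6.19 ± 0.22, a peroxisomal dienoyl-CoA reductase, and Scp2 at 5.19 ± 0.21, a peroxisomal thiolase and sterol carrier. The carnitine shuttle exchanged isoforms: Cpt1a, the liver carnitine palmitoyltransferase, rose by 5.52 ± 0.20 (890 against 19.4 CPM), and Cpt1b, the muscle form, fell by 5.95 (4.84 against 300.5 CPM). Of 15 acyl-CoA synthetases tested 11 rose and 3 fell, with Acsm1 at 8.54 ± 0.39, Slc27a2 at 8.28 ± 0.35 and Slc27a5 at 8.18 ± 0.32. Among 11 tested genes of a list of other acyl-CoA hydrolases and related enzymes 5 rose and 2 fell. Baat, which conjugates bile acids from their CoA esters, rose by 8.39 ± 0.29 (220 against 0.638 CPM), and Them4 rose by 1.77 ± 0.17. Acot9, a mitochondrial thioesterase, fell by 2.32 (4.21 against 21.2 CPM), on the muscle side with Acot6. In coenzyme A synthesis and breakdown 9 of 11 rose and 0 fell, among them the pantothenate kinase gene Pank1 at 4.58 ± 0.26. In mitochondrial beta-oxidation 10 of 14 rose and 0 fell, with a smaller median of 0.76. Of 16 other PPARalpha targets 11 rose and 3 fell.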

How the data were processed

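The authors sequenced TruSeq libraries of Trizol RNA and, per the series text, discarded a control liver (mouse 1071) and a fish muscle (mouse 1125) for clustering apart and lower RNA integrity. Soy mouse 1159 has a liver library alone. Per the submitters' processing notes, FastQC and the GRCm38 build were used. Neither labels nor headers name an aligner, counter, annotation or strand setting. The 8 deposited tables hold, per the file headers, read counts per gene (total exon, unique exon and total gene reads) and RPKM. Values repeated between tables were the same in all 116 columns compared. Within groups 39 pairs of libraries were compared, and none matched within sampling noise (chi-square per degree of freedom at least 10.3).

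Symbols came from GENCODE M21 (36345 of 38124 genes). Total exon read counts were filtered (filterByExpr, minimum count 10), normalized by TMM and tested with edgeR 4.0.16 in R 4.3.3, with all 4 diets of a tissue in 1 fit, and all 8 groups in 1 fit for tissue differences; p-values were adjusted over all genes. The standard error is the log2 difference divided by the square root of F. Depth per library had a median of 15316165 exon reads and sets the counting error. The procedure was tested on simulated data. Alternatives were DESeq2 1.42.0, limma-voom (limma 3.58.1), DESeq2 size factors, no filter, unique reads, the compared groups alone, replicate blocks and libraries left out. Liver and muscle of 13 mice come from the same animal; their deviations from group means correlated at -0.07 to 0.14 (median 0.07).

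All members are reported. From the pathway lists a gene is named where it passed, at most 3 per list and comparison by smallest p, and the most similar genes are the 3 of highest r for up to 3 members per tissue with a mean of at least 5 CPM (log2 CPM with a prior count of 2). The members, lists and tests were chosen with earlier results of these data known. RPKM are the authors' values.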

Additional observations from a re-analysis of the deposited data

Results flagged for a closer look

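In each tissue and diet with 4 libraries, a member was looked at again where 1 library lay far from the other 3, by Dixon's ratio of the gap to the range. This singled out 5 of 45 gene and group combinations, and chance alone gives about 1 in 20, or 2.25. Acot2 in lard muscle was high in mouse 1102 (19.6 CPM, the others 12.4 to 12.99 CPM). Acot3 in fish liver was low in mouse 1067 (100.7 CPM, the others 235 to 249 CPM). Acot4 in fish liver was high in mouse 1125 (54.7 CPM, the others 33.1 to 35.1 CPM). Acot8 in soy liver was high in mouse 1159 (25.0 CPM, the others 14.6 to 16.0 CPM), a library already set apart, and Acot8 in lard liver was high in mouse 1102 (16.8 CPM, the others 10.9 to 11.8 CPM).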

How the results depend on the processing

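The number of members past the threshold in each of the 16 comparisons stayed within 1.5 times of the value reported in 377 of 387 recalculations. By DESeq2's Wald test it was 2 in soy against control liver and 1 in fish against soy liver, in place of 0. With 1 library left out it ranged from 0 to 2 in both of these, from 0 to 1 in lard against soy liver (1 without the soy liver of mouse 1065 or 1141), from 0 to 1 in restricted against control muscle and in the difference between tissues (1 without the control muscle of mouse 1121), and from 6 to 7 between control tissues. Member differences were recalculated for every member between control tissues, and elsewhere only where the unadjusted p was under 0.05. The remaining differences, many of them near 0, are not counted here. Of these 845 recalculations 824 kept direction and side of the threshold, 17 newly passed, 0 ceased to pass and 4 reversed. The reversed ones were Acot7 in lard against soy liver (0.023 without the soy livers of mice 1073 and 1159), Acot7 in the difference between tissues (-0.058 without the 4 libraries that stood apart), Acot7 between control tissues (-0.057 to 0.35 with 1 library left out) and Acot2 between control tissues (-0.36 to 0.16); the cause was not tested.

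Library numbers are shared across diets, and their meaning is not stated. Deviations of libraries of the same number correlated at r -0.16 to 0.16 over 21 liver pairs and -0.28 to 0.25 over 19 muscle pairs. Whether the number marks a batch was not tested. With that number as a replicate block 0 members passed in all 14 diet comparisons, and with the animal as a replicate block 6 passed between control tissues and 0 in the difference between tissues. Counts over all genes were 149 in soy against control liver (866 by DESeq2's Wald test, 97 with the block, 26 without the soy livers of mice 1073 and 1159, and 34 to 1625 with 1 library left out) and 457 in restricted against control muscle (1267, 218 by limma-voom, 27 with the block, 2 without the control muscles of mice 1071 and 1120, and 3 to 1840). In the difference between tissues the 93 genes became 444 by DESeq2, 18 by limma-voom, 16 with the animal as a block and 11 without the 4 libraries. By DESeq2 fish against control liver went from 49 to 165, lard against control from 65 to 274, restricted against control from 138 to 339, fish against soy from 12 to 813, fish against lard from 26 to 164 and lard against soy from 0 to 151. In muscle it gave 242, 395 and 318 genes for soy, fish and lard against control, in place of 0, 1 and 0, and 14 for fish against lard, in place of 0. Low counts limit Acot3, Acot4 and Acot12 in muscle, and shared reads limit Acot1, Acot2 and Acot4.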
